A study of Mus musculus with 10 samples.

Results

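TGF-beta is a family of secreted signals that control matrix production, growth arrest and the fate of fat cell precursors. Transcripts of 9 genes of this system were followed in inguinal white adipose tissue, a subcutaneous fat depot, of 20-month-old mice. The genes were chosen by name, with earlier results of these data known, and read from the deposited table by symbol. They are the ligands Tgfb1, Tgfb2 and Tgfb3, the receptors Tgfbr1, Tgfbr2 and Tgfbr3, the signal transducer Smad3, the inhibitor Smad7 and the matrix protein gene Ltbp2. All 9 were among the 31285 genes of the table, and 8 of them, without Tgfb2, reached the level required for the test across all genes (at least 1 FPKM in at least 5 libraries). FPKM is fragments per kilobase of exon, scaled to the fragments sequenced, so exon length and depth are allowed for. Summed FPKM still differed between libraries, from 301933 in Ad-GHRKO 3 to 352043 in Flox 4. Levels are therefore relative to each library. The comparison genotype, Flox, had 5 libraries, and the other genotype, called Ad-GHRKO in the series and GHR Knockdown in the sample labels, also had 5. Ad-GHRKO mice are described as lacking the growth hormone receptor specifically in adipose tissue. For the promoter that drives the deletion, the strain and the sex, nothing is stated in the sources used. Both genotypes had free access to regular chow and water, and the labels name no treatment agent. The labels do not say that each library came from a different animal, so the p-values reflect only how far these samples vary, which may be technical.

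TGF-beta ligands are made as precursors that are cut and held in a latent complex in the matrix. Once released, a ligand binds the type II receptor, which activates the type I receptor, and the type I receptor phosphorylates SMAD2 and SMAD3, which enter the nucleus with SMAD4. In fat, TGF-beta is known for restraining the formation of adipocytes and for promoting matrix deposition. Growth hormone acts on adipocytes through its receptor and STAT5.

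Depth was 14.6 to 19.3 M reads (megareads) per library, as recovered from the FPKM values. Ghr, the targeted gene, averaged 93.5 ± 21.9 FPKM across Flox and 16.6 ± 2.71 FPKM across Ad-GHRKO libraries (SD, n = 5 each), with every Ad-GHRKO library lower (log2 change -2.41, limma adjusted p = 6.54e-05). Adipocyte markers were abundant in every library, with a summed level of 10 markers of 7448 to 11700 FPKM in Flox libraries and 3728 to 10540 FPKM in Ad-GHRKO. Transcripts of 26 skeletal muscle genes took 21.0% of the summed FPKM in Ad-GHRKO 1, 12.0% in Flox 5 and 7.76% in Flox 3. Ad-GHRKO 5 had 0.307%, and the remaining 6 libraries had 0.0124% to 0.0388%. Since FPKM is relative to the library, these 3 muscle-rich libraries stand apart, and results that rest on them are given with and without them. In bulk tissue, fewer cells of a type and less RNA per cell cannot be told apart.

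The 3 ligands are encoded by separate genes whose mature, receptor-binding ends are alike. The last 150 coding bases before the stop codon are shown because Tgfb3 was the gene whose groups did not overlap, and because reads can be assigned to one of them only where they differ. Sequences were taken from GENCODE M21 transcripts, 5′ to 3′, and capitals mark bases that differ from Tgfb3 at the same place.
Tgfb3: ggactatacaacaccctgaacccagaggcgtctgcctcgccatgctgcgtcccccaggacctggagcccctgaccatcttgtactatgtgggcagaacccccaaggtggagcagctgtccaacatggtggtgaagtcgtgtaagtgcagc
Tgfb1: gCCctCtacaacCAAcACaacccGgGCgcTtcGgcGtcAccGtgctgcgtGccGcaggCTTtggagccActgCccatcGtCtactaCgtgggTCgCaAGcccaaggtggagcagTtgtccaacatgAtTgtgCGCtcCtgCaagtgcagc
Tgfb2: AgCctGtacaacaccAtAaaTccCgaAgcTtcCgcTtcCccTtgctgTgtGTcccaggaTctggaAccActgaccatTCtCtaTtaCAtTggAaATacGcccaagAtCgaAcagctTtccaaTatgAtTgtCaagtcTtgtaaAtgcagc
In this stretch Tgfb1 differed from Tgfb3 at 39 bases and Tgfb2 at 40. Over the whole mature part, which follows the cleavage motif, a pair of arginines with any residue at the places between, and spans 112 codons in each of the 3 genes, identity to Tgfb3 was 73.5% for Tgfb1 and 70.8% for Tgfb2. The longest run of identical bases shared with the Tgfb3 transcript was 15 bases for either of them.

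Of the 3 ligands, Tgfb3 rose in Ad-GHRKO, while Tgfb1 did not pass the test and Tgfb2 was at 1.65 FPKM or less in every library. Tgfb3 (ENSMUSG00000021253, chromosome 12, 86056745 to 86079041, minus strand, GRCm38) encodes a ligand known for its part in palate and lung development. Its level in Flox libraries 1 to 5 was 7.27, 9.76, 7.11, 7.84 and 7.89 FPKM, and in Ad-GHRKO libraries 1 to 5 it was 11.7, 13.1, 12.2, 11.9 and 16.2 FPKM. Every Ad-GHRKO library was above every Flox library, and the muscle-rich libraries lay with the others of their genotype. The means were 7.97 ± 1.06 and 13.0 ± 1.85 FPKM (SD, n = 5 each), a ratio of 1.63. The change of log2(FPKM + 1), a scale that shrinks differences at low levels, was 0.64 (SE 0.13, limma adjusted p = 0.0285). By exact permutation, two-sided, p was 0.00794, which is the lowest value 5 libraries against 5 can reach. Tgfb3 was the only one of the 8 tested genes called, where 2.19% of all 12785 tested genes were called, 0.774% as higher and 1.42% as lower. It was also the only one whose groups did not overlap, against 4.97% of all tested genes, 1.62% with Ad-GHRKO higher and 3.35% with it lower.

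The Tgfb3 difference was positive in every setting, but its adjusted p lay close to the threshold. The log2 change ran from 0.54 without all 4 libraries above 0.1% muscle to 0.80 when libraries were rescaled to TPM. The call held without Flox 2 (adjusted p = 0.0333), without Ad-GHRKO 1 (0.0130) and without the 3 muscle-rich libraries (log2 change 0.63, 0.0445). It ended without any 1 of Flox 1, 3, 4 or 5 or Ad-GHRKO 2, 3, 4 or 5 (adjusted p up to 0.0737, log2 change 0.57 to 0.67). The call also ended without all 4 libraries above 0.1% muscle (0.0559) and without a filter on low values (0.0511). The same held with the macrophage marker score as covariate (0.0722) and with libraries of the same number taken as blocks (0.0949). The exons of Tgfb3 share 257 bases with Gm48008 and 163 bases with Gm37804 on the opposite strand, 2 genes at a mean of at most 0.114 FPKM in either genotype. Whether reads were counted by strand is not stated in those sources.

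Tgfb1, the ligand made by many cell types including macrophages (ENSMUSG00000002603, chromosome 7, 25687002 to 25705077, plus strand), was at 11.6, 7.61, 9.08, 10.2 and 6.46 FPKM in Flox 1 to 5 and at 6.32, 11.5, 13.6, 10.9 and 12.0 FPKM in Ad-GHRKO 1 to 5. The groups overlapped, and the lowest library of each genotype was muscle-rich. The log2 change was 0.23 (SE 0.20, limma adjusted p = 0.633), and it was -0.093 with the macrophage score as covariate. Leaving out Flox 5 gave 0.13, leaving out Ad-GHRKO 3 gave 0.15 and leaving out Ad-GHRKO 1 gave 0.40. The summed level of 12 macrophage markers ran from 429 to 1211 FPKM in Flox libraries and from 596 to 1188 FPKM in Ad-GHRKO, and its 3 lowest libraries, Flox 2, Flox 5 and Ad-GHRKO 1, were also the 3 lowest for Tgfb1. Of these 12 markers, all tested, 1 was called as higher and none as lower, where 0.774% and 1.42% of all tested genes were. The part of macrophages in the Tgfb1 levels was not tested beyond the fit with the score.

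Tgfb2 (ENSMUSG00000039239, chromosome 1, minus strand) reached 1 FPKM in 3 libraries only. It was at 0.740, 0.155, 0.788, 1.46 and 1.33 FPKM in Flox libraries and at 1.65, 0.504, 0.979, 0.663 and 0.638 FPKM in Ad-GHRKO, which corresponds to 16 to 175 reads per library. The exons of Tgfb2 share 124 bases with the antisense gene Gm29491, at 0.128 and 0.0216 FPKM. The 3 highest values were those of Ad-GHRKO 1, Flox 4 and Flox 5, and the genotypes overlapped throughout (exact permutation p = 0.952, n = 5 each). Among the ligands' summed FPKM, Tgfb3 made up 45.0% ± 7.73 in Flox and 52.8% ± 5.36 in Ad-GHRKO, and Tgfb1 made up 49.9% ± 7.46 and 43.3% ± 7.11 (SD, n = 5 each). Tgfb3 was above Tgfb1 in 2 of 5 Flox and 4 of 5 Ad-GHRKO libraries, and the ranges of the shares overlapped between genotypes.

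**Figure D1:**
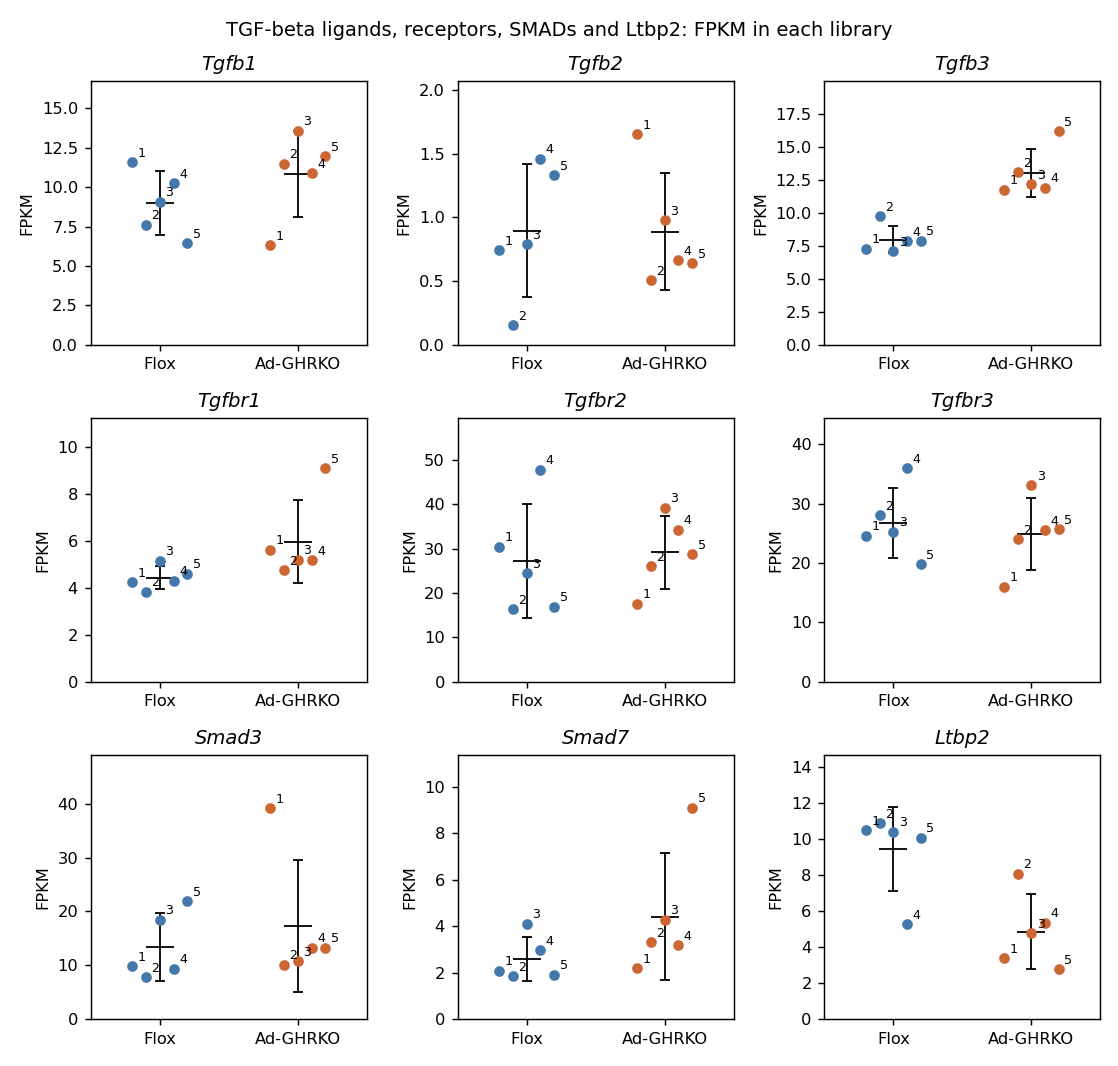
FPKM (vertical axis, from 0) of the 9 genes in each library, with Flox in blue, Ad-GHRKO in orange and the library number beside each point. Black bars are the mean ± SD of 5 libraries, and Tgfb3 is the gene whose 2 groups do not overlap.

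Receptor transcripts did not pass the test. Tgfbr2, which encodes the type II receptor that binds ligand, and Tgfbr3, which encodes the co-receptor betaglycan, were the most abundant of the 9 genes, and Tgfbr1, the type I receptor kinase gene, was several places lower. Tgfbr1 (ENSMUSG00000007613, chromosome 4, 47353222 to 47414931, plus strand) was at 4.25, 3.85, 5.17, 4.31 and 4.61 FPKM in Flox libraries and at 5.64, 4.76, 5.20, 5.19 and 9.11 FPKM in Ad-GHRKO. Flox 3, a muscle-rich library, was the Flox library that reached into the Ad-GHRKO range, and Ad-GHRKO 5 stood above all others. The log2 change was 0.33 (SE 0.16, limma adjusted p = 0.330), with an unadjusted exact permutation p = 0.0159 (n = 5 each), and it was 0.19 without Ad-GHRKO 5. That exact p depended on scaling, at 0.151 with median ratio scaling and 0.00794 with TPM, and was 0.0714 without Flox 2.

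Tgfbr2 (chromosome 9, minus strand) was at 30.4, 16.4, 24.4, 47.8 and 16.9 FPKM in Flox libraries and at 17.6, 26.1, 39.2, 34.3 and 28.7 FPKM in Ad-GHRKO. The Flox libraries enclosed the whole Ad-GHRKO range. The log2 change was 0.16 (SE 0.30, limma adjusted p = 0.840) and became -0.36 with the macrophage score as covariate. Single libraries decided its size. It was 0.016 when Flox 2 was left out, 0.027 for Flox 5, 0.047 for Ad-GHRKO 3 and 0.095 for Ad-GHRKO 4, and larger, at 0.33 and 0.39, when Ad-GHRKO 1 or Flox 4 was left out. Tgfbr3 (chromosome 5, minus strand) was at 24.6, 28.1, 25.2, 36.0 and 19.8 FPKM in Flox libraries and at 15.98, 23.98, 33.1, 25.5 and 25.6 FPKM in Ad-GHRKO. The lowest library of each genotype was again muscle-rich. Its log2 change of -0.11 (SE 0.20, adjusted p = 0.839) was 0.0054 when libraries were rescaled to TPM and 0.032 without Ad-GHRKO 1, so no direction can be given.

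Neither SMAD gene passed the test, and for each of them a single Ad-GHRKO library stood above all others. Smad3, the transducer of TGF-beta signals (ENSMUSG00000032402, chromosome 9, 63646767 to 63757994, minus strand), was at 9.85, 7.71, 18.5, 9.30 and 21.9 FPKM in Flox libraries and at 39.2, 10.1, 10.8, 13.3 and 13.3 FPKM in Ad-GHRKO. The 3 highest values were those of the 3 muscle-rich libraries, in the order of their muscle share. With all libraries the log2 change was 0.26 (SE 0.38, limma adjusted p = 0.791), and it was -0.073 without Ad-GHRKO 1. In the 7 libraries with at most 1% muscle transcripts, Smad3 was at 7.71 to 9.85 FPKM in 3 Flox and 10.1 to 13.3 FPKM in 4 Ad-GHRKO libraries, with a log2 change of 0.36 that did not pass (adjusted p = 0.141).

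**Figure D2:**
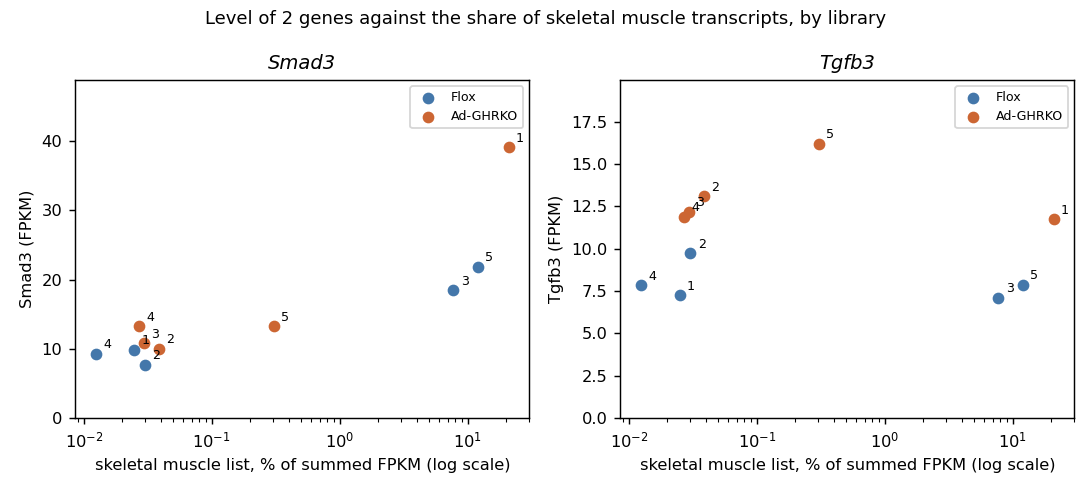
FPKM of Smad3 (left) and Tgfb3 (right) against the percent of summed FPKM in 26 skeletal muscle genes (log axis) for each of the 10 libraries, coloured by genotype and numbered. Smad3 reaches 18.5 to 39.2 FPKM in the 3 muscle-rich libraries, while Tgfb3 parts by genotype at low and high muscle share.

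Smad7, which encodes an inhibitory SMAD that is itself induced by TGF-beta (ENSMUSG00000025880, chromosome 18, 75367529 to 75395935, plus strand), was at 2.08, 1.85, 4.11, 2.95 and 1.90 FPKM in Flox libraries and at 2.18, 3.31, 4.28, 3.18 and 9.10 FPKM in Ad-GHRKO. Ad-GHRKO 5 was above every other library, and the remaining ranges overlapped. The log2 change was 0.51 (SE 0.29, limma adjusted p = 0.419) and was 0.26 without Ad-GHRKO 5. In the same 7 libraries with little muscle, 4 of the 8 tested genes (Tgfb3, Tgfbr1, Smad3 and Smad7) had every Ad-GHRKO library above every Flox library, as 15.6% of all tested genes did (26.8% when lower genes are included). Tgfb1, Tgfbr2, Tgfbr3 and Ltbp2 overlapped there.

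Ltbp2 had the lower of the 2 negative log2 changes among the 8 tested genes, and it did not pass. It encodes a latent TGF-beta binding protein of elastic and microfibrillar matrix that, unlike its relatives, is not known to bind latent TGF-beta. Ltbp2 (ENSMUSG00000002020, chromosome 12, 84783212 to 84876532, minus strand) was at 10.5, 10.9, 10.4, 5.27 and 10.1 FPKM in Flox libraries and at 3.37, 8.08, 4.75, 5.34 and 2.75 FPKM in Ad-GHRKO. Flox 4 lay within the Ad-GHRKO range, and the other 4 Flox libraries lay above all Ad-GHRKO libraries. The means were 9.43 ± 2.34 and 4.86 ± 2.08 FPKM (SD, n = 5 each), and the log2 change was -0.86 (SE 0.25, limma adjusted p = 0.116), with an unadjusted exact permutation p = 0.0238. The change was -0.68 without the 3 muscle-rich libraries (adjusted p = 0.234) and -0.46 without all 4 with muscle transcripts (0.376). Its exons share 764 of 8184 bases with the antisense gene D030025P21Rik, which averaged 0.00281 FPKM in Flox and 0 in Ad-GHRKO. By limma, 2 of the 8 tested genes, Tgfb3 and Ltbp2, had an unadjusted p of at most 0.05, as 16.4% of all tested genes did.

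Flox 4 also had the highest Tgfb2, Tgfbr2 and Tgfbr3 of its genotype, and Ad-GHRKO 5 had the highest Tgfb3, Tgfbr1 and Smad7 with the lowest Ltbp2. Ad-GHRKO 1 was lowest of its genotype for 5 of the 9 genes. The order of levels was Tgfbr2, Tgfbr3, Smad3, Ltbp2, Tgfb1, Tgfb3, Tgfbr1, Smad7 and Tgfb2 in Flox. In Ad-GHRKO it was Tgfbr2, Tgfbr3, Smad3, Tgfb3, Tgfb1, Tgfbr1, Ltbp2, Smad7 and Tgfb2. Neighbours whose FPKM ranges did not overlap were Tgfb3 above Tgfbr1 and Smad7 above Tgfb2 in Flox, and Smad7 above Tgfb2 in Ad-GHRKO. The ranges of all other neighbours overlapped, although within each of the 5 libraries Tgfbr1 was above Smad7 in Flox, and Tgfbr2 was above Tgfbr3 and Tgfb1 above Tgfbr1 in Ad-GHRKO. Ltbp2 held place 4 in Flox and place 7 in Ad-GHRKO, and Tgfb3 held places 6 and 4.

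The upstream sequence of Ltbp2 is shown because Ltbp2 had the lowest change of the 8 tested genes and because SMAD proteins can bind the short motif CAGAC. It covers the 250 bases before the RefSeq transcription start (GRCm38.p6, chr12:84876492-84876741, minus strand), with CAGAC on either strand in capitals.
Ltbp2: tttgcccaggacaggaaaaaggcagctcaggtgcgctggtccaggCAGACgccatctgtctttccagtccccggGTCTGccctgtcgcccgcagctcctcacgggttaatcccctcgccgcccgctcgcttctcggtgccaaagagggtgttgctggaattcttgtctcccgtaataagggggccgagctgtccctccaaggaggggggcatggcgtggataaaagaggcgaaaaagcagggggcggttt
The motif occurred 2 times in this window, and 11.7% of 32851 windows of the same length held at least as many. RefSeq promoters of 300 bases were found for 6 of the 9 genes, 7 promoters in all. CAGAC was in 4 of the 7 and in 49.6% of all promoters. TTCNNNGAA, the motif bound by STAT5, was in 0 of the 7 and in 8.3% of all promoters, searched on both strands. A match is only a match of letters.

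Beyond the 9 genes, 6 lists of related genes, also chosen with earlier results known, held 123 genes of the table, of which 98 were tested. Of these, 5 rose, none fell and 93 did not pass, where 2.19% of all tested genes were called, and their median log2 change was 0.20 against 0.036 for all genes tested. When libraries were rescaled to TPM, the medians were 0.36 and 0.15, a shift of the whole table, and the calls over all genes moved from 99 higher and 181 lower to 141 higher and 93 lower. The median of the 8 tested TGF-beta genes was 0.25 (0.38 with TPM). Under median ratio scaling 9 of the 98 were called, 8 higher and 1 lower. Without Ad-GHRKO 1 it was 14, 13 higher and 1 lower. Calls over all 12785 tested genes rose as well, from 280 to 547 and 1185.

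Among 16 tested genes of the latent complex and of ligand activation, Thbs1 rose and 15 did not pass. Over all tested genes, 0.774% were called as higher and 1.42% as lower. Thbs1 encodes thrombospondin 1, which can release TGF-beta from its latent complex. It was at 27.8, 7.08, 8.93, 2.49 and 1.53 FPKM in Flox libraries and at 31.7, 120, 142, 116 and 314 FPKM in Ad-GHRKO (log2 change 3.99, SE 0.69, limma adjusted p = 0.0142). The groups did not overlap, as for 4.97% of all tested genes in either direction, though Flox 1 and Ad-GHRKO 1 lay close together. The call ended without a filter (adjusted p = 0.0561) and with the macrophage score as covariate (0.0725). The other latent TGF-beta binding proteins, chosen here after their values were seen, did not all lie on the same side as Ltbp2. Ltbp3 was at 44.6 ± 6.62 and 28.4 ± 4.79 FPKM with all Ad-GHRKO libraries lower (adjusted p = 0.0602), Ltbp4 was at 27.1 ± 3.96 and 44.1 ± 16.4 FPKM (adjusted p = 0.177), and Ltbp1 was at 6.44 ± 3.28 and 6.99 ± 2.43 FPKM (adjusted p = 0.852; SD, n = 5 each). None of these 3 passed.

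None of the 10 other receptors and none of the 9 other SMADs and partners passed, and 1 of the 19 had an unadjusted p of at most 0.05 by limma, as 16.4% of all tested genes did. That gene was Acvr1b, the type I receptor for activin, at 8.93 ± 0.929 FPKM for Flox and 12.6 ± 0.796 for Ad-GHRKO (SD, n = 5 each). All its Ad-GHRKO libraries were higher (log2 change 0.45, limma adjusted p = 0.0555), as were those of 1.62% of all tested genes. It was called in 7 of 16 other settings, among them without the 3 muscle-rich libraries (0.0306). With single libraries left out it was called in 1 of 10 fits. Limma adjusted p reached 0.183 in the former and 0.155 in the latter. Bmpr2, Smad4 and Trim33, which the naming rule also gave, did not pass, with log2 differences of 0.30, 0.23 and 0.21 (limma adjusted p = 0.334, 0.308 and 0.547). Smad9, named after its values were seen, was below 1 FPKM in every library and was not tested. It averaged 0.577 ± 0.123 FPKM in Flox and 0.204 ± 0.0562 in Ad-GHRKO (SD, n = 5 each), with every Ad-GHRKO library lower.

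In the list of inhibitors and negative feedback, 2 of 17 tested genes rose, none fell and 15 did not pass, where 0.774% of all tested genes were called as higher and 1.42% as lower. Fstl3, a secreted protein that binds activins and related ligands, was at 0.696, 0.963, 0.680, 1.03 and 1.14 FPKM in Flox libraries and at 1.48, 3.88, 2.84, 2.67 and 1.99 FPKM in Ad-GHRKO (log2 change 0.88, SE 0.18, limma adjusted p = 0.0292). It met the filter for testing only through its Ad-GHRKO libraries, so the filter selects for this direction. Nedd4l, a ubiquitin ligase that acts on SMAD proteins among other targets, averaged 1.98 ± 0.280 FPKM in Flox and 3.36 ± 0.560 in Ad-GHRKO (log2 change 0.54, SE 0.12, limma adjusted p = 0.0490). Groups did not overlap for 4 of the 17 tested genes, against 4.97% of all tested genes, 1.62% with Ad-GHRKO higher. These were Fstl3, Nedd4l, Skil and Ppm1a, all with Ad-GHRKO higher. Skil and Ppm1a did not pass (limma adjusted p = 0.217 and 0.115). Fstl3 and Nedd4l were both low. The exons of Fstl3 share 1157 of 2445 bases with Prss57 on the opposite strand, a gene at 0.120 FPKM or less on average. The call of Fstl3 ended without Flox 1, 2, 3 or 4 or Ad-GHRKO 3 or 4 (adjusted p up to 0.0831), and that of Nedd4l without any library other than Ad-GHRKO 1 (up to 0.124). Both calls also ended without a filter (0.0957 and 0.118) and with the macrophage score as covariate (0.0982 and 0.133), and that of Nedd4l also with a robust prior (0.0505) and without the 4 libraries above 0.1% muscle (0.0520).

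The list of TGF-beta target genes gave 2 higher, none lower and 29 not past the test among 31 tested, with a median log2 change of 0.29. Over all tested genes, 0.774% were called as higher and 1.42% as lower. Changes were positive for 22 of the 31 and negative for 9, against 7127 and 5658 of all tested genes. Cdkn2b had the lowest change, at 9.33 ± 2.93 FPKM in Flox and 5.40 ± 1.27 in Ad-GHRKO (SD, n = 5 each). It did not pass (log2 change -0.67, limma adjusted p = 0.141). Ccn2, which encodes connective tissue growth factor, was at 2.53, 2.02, 1.88, 2.14 and 1.38 FPKM in Flox libraries and at 7.41, 5.61, 13.6, 7.60 and 13.1 FPKM in Ad-GHRKO. Every Ad-GHRKO library exceeded every Flox library, and Ccn2 kept its call under every alternative that was run (log2 change 1.75, SE 0.22, limma adjusted p = 0.00252). Junb, an immediate early transcription factor gene that many other signals also induce, rose from 11.8 ± 5.31 to 55.1 ± 23.4 FPKM (log2 change 2.11, adjusted p = 0.0140), a call that ended without the 3 muscle-rich libraries (log2 change 1.69, 0.0543), without the 4 above 0.1% muscle (1.47, 0.0920), without a filter (0.0514) and with the macrophage score as covariate (0.0762). The exons of Junb share 173 bases with Prdx2 on the opposite strand, which averaged 35.4 and 31.0 FPKM, and those of Ccn2 share 665 of 2861 bases with Gm15270, at 0.0116 and 0.0326 FPKM.

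The matrix genes of the list, named after their values were seen, did not pass, and their differences ranged widely. Lox, which encodes the collagen cross-linking enzyme lysyl oxidase, was at 12.6 ± 2.93 FPKM for Flox and 37.8 ± 19.2 for Ad-GHRKO (SD, n = 5 each), with a log2 change of 1.39 close to the threshold (limma adjusted p = 0.0531). Timp1, an inhibitor of matrix proteases, Postn, which encodes the matrix protein periostin, and Vcan, which encodes the proteoglycan versican, differed by 1.10, 0.95 and 0.74 on the log2 scale, which did not pass (limma adjusted p = 0.252, 0.257 and 0.263). Others lay nearer to 0, and Sparc had a log2 change of -0.0091 (limma adjusted p = 0.993). Col1a1 was at 135 ± 47.5 FPKM for Flox and 197 ± 68.2 for Ad-GHRKO (SD, n = 5 each; adjusted p = 0.474). Fn1 was at 86.8 ± 76.7 and 89.8 ± 42.8 FPKM (adjusted p = 0.823), and Tgfbi, named for its induction by TGF-beta, at 51.0 ± 22.8 and 54.9 ± 8.68 FPKM (adjusted p = 0.777). Acta2, smooth muscle actin, was at 56.4 ± 17.2 and 154 ± 80.5 FPKM with no overlap (adjusted p = 0.0629). The summed level of 10 pericyte and smooth muscle markers, Acta2 included, was 116 to 183 FPKM in Flox libraries and 159 to 388 FPKM in Ad-GHRKO, highest in Ad-GHRKO 5. Of 9 tested markers 1 was called as lower (Cspg4) and none as higher, where 1.42% and 0.774% of all tested genes were. Acta2 alone was at 38.0 to 82.3 FPKM in Flox and 83.8 to 281 FPKM in Ad-GHRKO. Much of the sum is thus Acta2 itself, and the sum does not speak for the other markers. The part of these cells in the levels of Ccn2, Acta2 and Tgfb3 was not tested.

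**Figure D3:**
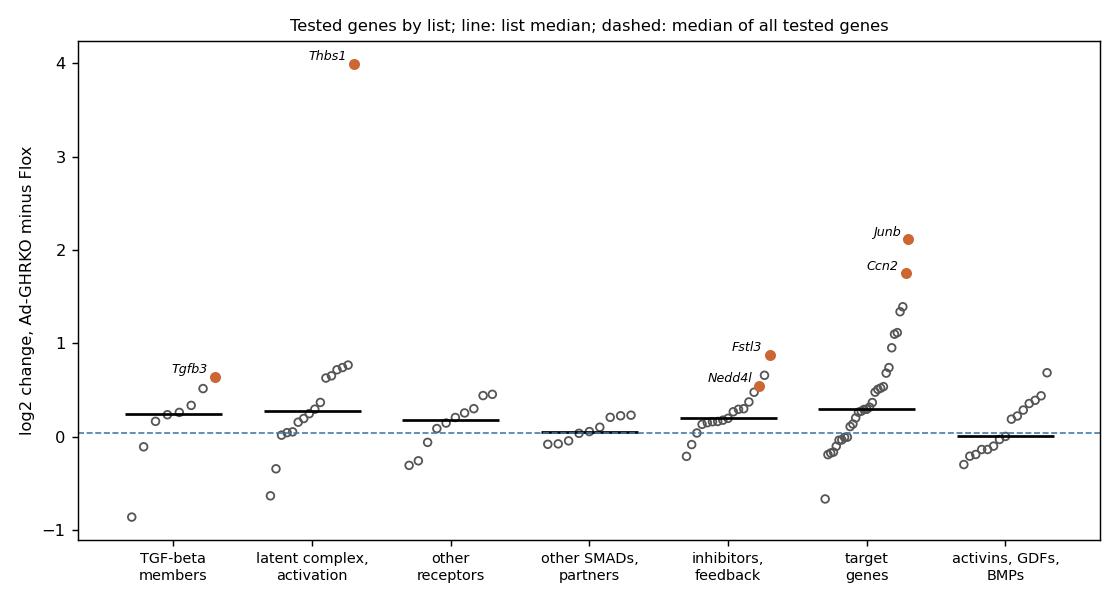
log2 change (Ad-GHRKO minus Flox, of log2(FPKM + 1)) of each tested gene by list, with black lines at the list medians and a dashed line at the median of all tested genes (0.036). Orange points passed a limma adjusted p of 0.05, and all 6 of them are positive.

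Of the activins, GDFs, BMPs and their antagonists, 15 of 26 genes were tested and none passed (median log2 change 0.001), and 1 had an unadjusted p of at most 0.05 by limma, against the same 16.4% of all tested genes. Bmp2 was at 2.21 ± 0.336 and 3.44 ± 0.993 FPKM (adjusted p = 0.248), and at 1.74 FPKM in Ad-GHRKO 1, without which it was called (0.0121). Fstl1, an abundant secreted glycoprotein, was at 57.0 ± 32.4 and 89.0 ± 32.6 FPKM (SD, n = 5 each; adjusted p = 0.434).

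**Figure D4:**
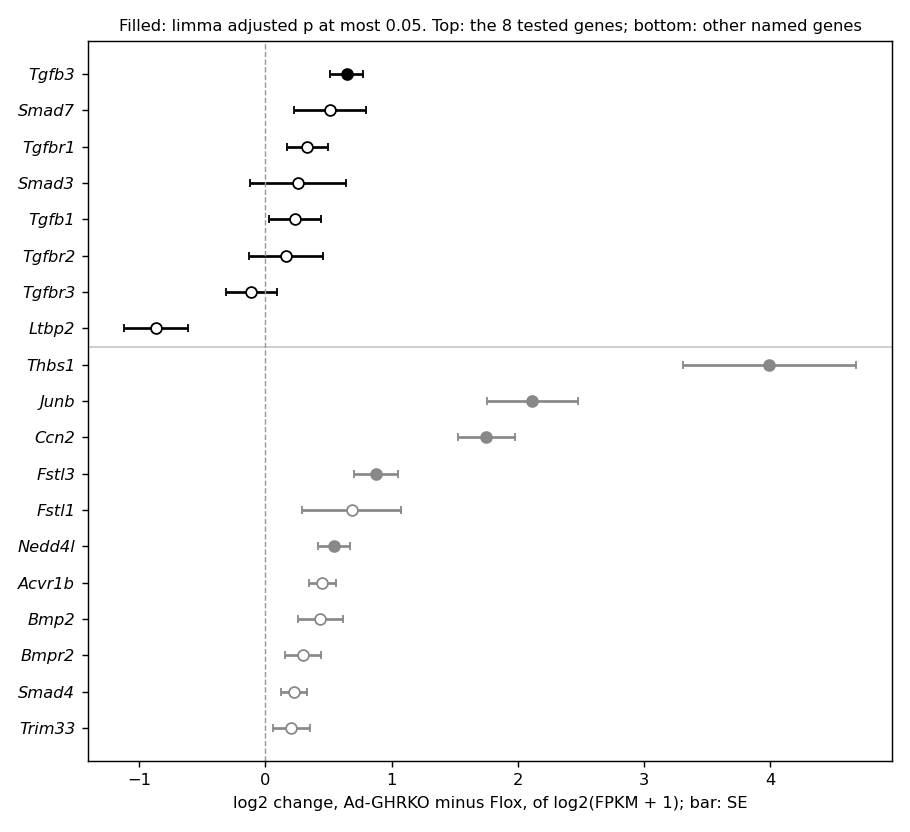
log2 change (horizontal axis, Ad-GHRKO minus Flox, of log2(FPKM + 1)) with its SE for the 8 tested TGF-beta genes (top) and the other genes named by rule (bottom). Filled circles passed a limma adjusted p of 0.05, and Tgfb3 (0.64) is the filled one at the top.

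The genes whose pattern over the 10 libraries was most like that of Tgfb3 were Slc5a7, Sphk1 and Aass. Likeness was the mean absolute difference of log2(FPKM + 1) values, each gene set to mean 0 and SD 1 over the libraries, and it was 0.162, 0.204 and 0.216 SD. Slc5a7, a choline transporter gene, was at 0.396 ± 0.507 FPKM in Flox libraries and 4.25 ± 2.33 FPKM in Ad-GHRKO. Sphk1, sphingosine kinase 1, was at 0.298 ± 0.0999 and 1.61 ± 0.684 FPKM, and Aass, an enzyme of lysine breakdown, at 0.387 ± 0.290 and 2.89 ± 0.447 FPKM (SD, n = 5 each). All 3 are low in Flox, and like Tgfb3 they were high in every Ad-GHRKO library, which the measure of likeness selects for. Sphk1 and Aass were below 1 FPKM in every Flox library, and Slc5a7 in all but Flox 2 (1.24 FPKM). All 3 met the filter for testing only through their Ad-GHRKO libraries, so the filter also selects for this pattern.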

How the data were processed

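Polyadenylated RNA from 10 samples was sequenced, per the labels' protocols, with second strand marking. The authors deposited FPKM values per library, per the file headers. Aligner, counter and use of strand: not stated in any source used. The submitters' processing notes name GRCm39, but 31109 of 31253 gene identifiers found in GENCODE M21 had that release's GRCm38 coordinates, which are used. Multiplying FPKM by M21 exon length gave whole reads (tolerance 0.01) for 99.43% to 99.49% of values per library.

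Genotypes were compared on log2(FPKM + 1) by limma 3.58.1 (R 4.3.3), with a trended prior, two-sided, and Benjamini-Hochberg adjustment at 0.05 over the 12785 genes that reached 1 FPKM in 5 or more libraries. Exact permutation tests cover single genes, unadjusted over 9 genes. The method was tested on simulated data. Members and lists were chosen with earlier results of these data known. Named genes are the 9 genes, Ghr and, per list, up to 4 called genes or else the 2 with the smallest p. Deviations of libraries with the same number in the title correlated between -0.489 and 0.394. No values for differently numbered libraries stand beside these, so whether the numbers pair libraries was not tested. Alternatives were other pseudocounts, filters, scalings, weights, covariates, voom, a replicate block and left-out libraries. Promoters are from RefSeq, GRCm38.p6. Figures used matplotlib 3.10.9.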

Additional observations from a re-analysis of the deposited data

Results flagged for a closer look

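In 48 groups of 5 libraries checked on log2(FPKM + 1), 8 had 1 library whose gap to its nearest neighbour exceeded 0.71 of the group's range, a limit that chance passes in about 1 group in 20. Ad-GHRKO 5 was highest for Tgfbr1 (9.11 FPKM against 4.76 to 5.64 in the other 4), Bmpr2 (5.68 against 3.38 to 3.57) and Sphk1 (2.82 against 1.23 to 1.47). Ad-GHRKO 1, a muscle-rich library, was highest for Smad3 (39.2 FPKM against 10.1 to 13.3) and lowest for Bmp2 (1.74 against 3.54 to 4.22) and Fstl1 (35.3 against 88.8 to 123). Flox 4 was lowest for Ltbp2 (5.27 FPKM against 10.1 to 10.9). Flox 3, also muscle-rich, was highest for Smad4 (16.4 FPKM against 13.4 to 14.1).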

How the results depend on the processing

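The number of called TGF-beta genes, 1 of 8, was 0 with no filter, with the replicate block, with the macrophage score as covariate and without the 4 libraries above 0.1% muscle. It ranged from 0 to 1 when single libraries were left out. Calls in the 6 other lists, 5 of 98, were 1 with no filter, 9 with median ratio scaling, 10 with quantile normalization, 8 with TPM, 2 with the replicate block, 14 with array weights, 11 with the muscle score, 9 with the progenitor and fibroblast score and 1 with the macrophage score as covariate. They were 10 and 8 without the 3 and the 4 libraries with muscle transcripts, and 3 to 14 with single libraries left out. Of these list calls, 1 was lower with median ratio scaling, quantile normalization, array weights, the muscle score, and the progenitor and fibroblast score. The same number was lower without the 3 and the 4 libraries with muscle transcripts and without Ad-GHRKO 1. In the other settings all list calls were higher. Calls over all genes, 280, were 117 with no filter, 547 with median ratio scaling, 565 with quantile normalization, 85 with the replicate block, 1695 with array weights, and 826 and 83 with the muscle and macrophage scores. They were 777 and 675 without the 3 and the 4 libraries with muscle transcripts, and 116 to 1185 with single libraries left out. Directions that reversed were those of Tgfb1 (-0.093) and Tgfbr2 (-0.36) with the macrophage score, Tgfbr3 with TPM (0.0054) and without Ad-GHRKO 1 (0.032; -0.22 to 0.032 with single libraries left out), and Smad3 without Ad-GHRKO 1 (-0.073; -0.073 to 0.45). The numbers of single genes past an unadjusted exact p of 0.05, 3 of 9, stayed between 2 and 4. The exact test was not run over all genes, so no share over all genes stands beside this count. By limma, 16.4% of all tested genes had an unadjusted p of at most 0.05. In the fit with the replicate block, the calls of Tgfb3 (adjusted p = 0.0949), Thbs1 (0.0878), Fstl3 (0.0772) and Nedd4l (0.150) ended by limma. The causes were not tested. With 16 to 175 reads per library, differences in Tgfb2 smaller than its spread were not detectable.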
